A study of Mus musculus with 10 samples.

Results

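The 10 genes described here mark liver sinusoidal and vascular endothelial cells: Pecam1, Cdh5, Eng, Kdr, S1pr1, Stab1, Stab2, Lyve1, Clec4g and Mcam. They were taken from a list of cell markers, and their symbols were matched to the NCBI Gene numbers that name the rows of the count table. All 10 were found among its 27179 genes, and all 10 were among the 15226 genes that passed a filter on low counts and were tested. For comparison they were placed in 3 groups: 5 pan-endothelial genes (Pecam1, Cdh5, Eng, Kdr, S1pr1), 4 sinusoidal genes (Stab1, Stab2, Lyve1, Clec4g) and 1 capillarization gene (Mcam). Mcam was placed there by its listing, and whether it marks capillarization in these livers was not tested. RNA came from whole frozen liver of male C57BL/6 mice that carried floxed Lpcat3 alleles, 1 library per mouse. The 5 LKO mice also carried Cre recombinase under the albumin promoter, which is active in hepatocytes, and the 5 control mice (Lpcat3f/f) carried none. Both groups had received a NASH diet for 12 weeks, so each comparison is between genotypes within steatohepatitis, and a chow-fed group was not analysed here. The labels state no age. Lpcat3 encodes an enzyme that places polyunsaturated fatty acids into membrane phospholipids.

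Liver sinusoids are lined by a fenestrated endothelium without a continuous basement membrane. Its cells take up waste molecules through scavenger receptors and exchange signals with hepatocytes and stellate cells. In chronic liver injury this endothelium can lose its fenestrae and gain features of continuous capillaries, a change called capillarization, which includes the appearance of basement membrane.

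The libraries held 26914124 (control 4) to 46727182 (control 5) counts. Lpcat3 stood at 31.3 ± 4.65 CPM (counts scaled for library size, with TMM factors) in LKO and 109 ± 13.3 CPM in control livers (SD, n = 5 each), and the ranges did not overlap (log2 fold change -1.79, edgeR adjusted p = 0.000151). Control 4 stood apart from its group and lay at 30.2 on the first principal component (56.8% of the variance), inside the LKO range of -8.03 to 82.3 and away from the other controls at -52.7 to -30.1. LKO 3 was the outermost LKO library. Values without control 4 are therefore given for each member. It was left out because of where it lay, so they are alternatives and not separate support. A code in each title (A54, A55 or A67) has no stated meaning. A54 covers 1 control and 2 LKO mice, while all A55 mice are controls and all A67 mice are LKO, so outside A54 code and genotype cannot be told apart. The labels do not say whether mice shared litters or cages, and p-values measure the spread between these libraries.

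In LKO livers 9 of the 10 endothelial genes had a higher mean level and 1, the sphingosine-1-phosphate receptor gene S1pr1, a lower one. The background share of genes with a positive log2 fold change was 49.5%. With an adjusted p under 0.05 as the threshold (edgeR quasi-likelihood test, Benjamini-Hochberg over all genes), 0 of the 10 members passed, beside 10 of 15226 genes, or 0.0657%. Of the 10, 6 had an unadjusted p under 0.05, against 22.3% of all genes, and 3 had an adjusted p under 0.1 (Mcam, S1pr1 and Pecam1), against 1.94% of all genes. The CPM ranges of both genotypes were apart for 4 members (Pecam1, Cdh5, Mcam and S1pr1), against 3.95% of all genes. DESeq2 passed 5 members (Pecam1, Cdh5, Stab1 and Mcam as higher, S1pr1 as lower), with 7.79% of all genes passed by it. On simulated counts DESeq2 passed 39 unchanged genes, against 6 for edgeR, and recovered 77 of 97 genes changed 2-fold, against 65. Those counts were drawn from the dispersions edgeR estimated and held no library like control 4. They therefore cannot show whether a member that DESeq2 passed was passed wrongly. Without control 4, edgeR passed the same 5 members in the same directions, and 15.0% of all genes.

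**Figure D1:**
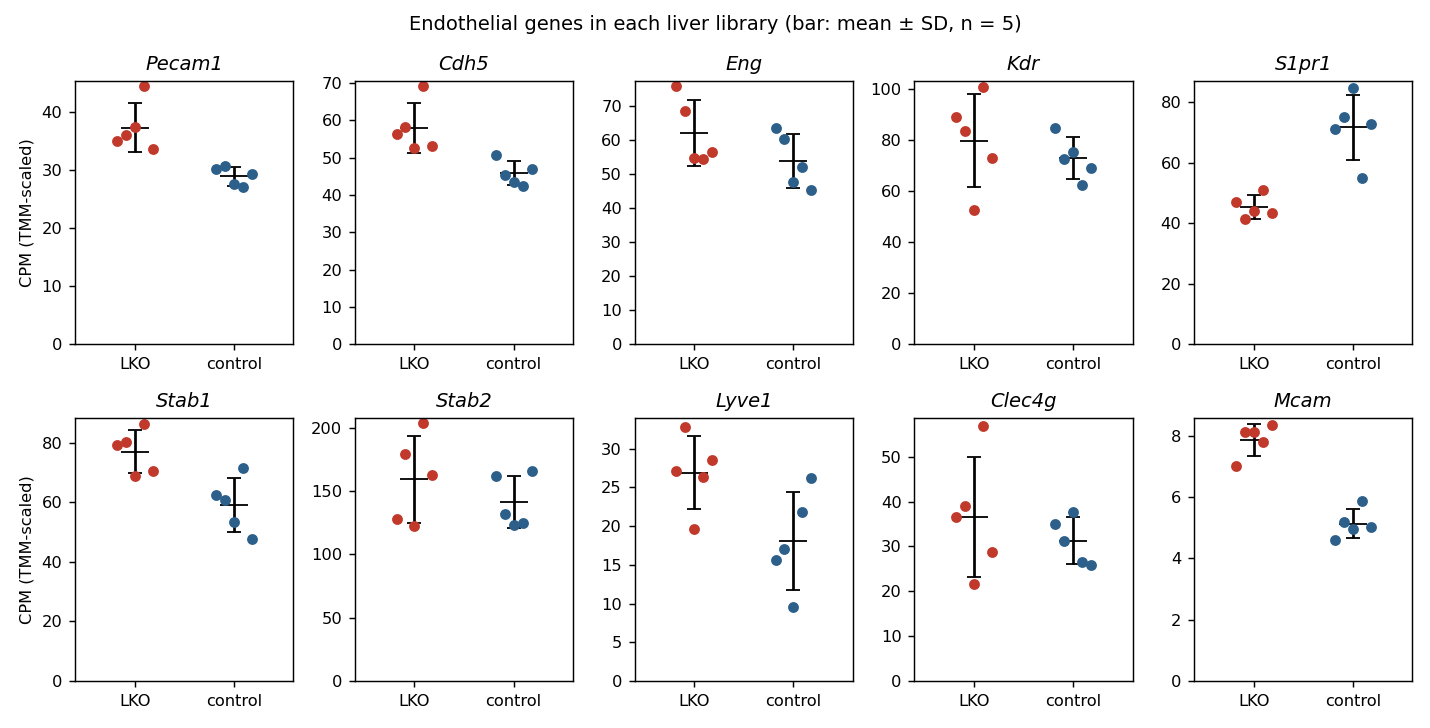
TMM-scaled CPM (y axis, from 0) of the 10 endothelial genes in each library of LKO (red) and control livers (blue), with the mean ± SD of 5 libraries as bars. For Pecam1, Cdh5 and Mcam all red points lie above all blue points, for S1pr1 all lie below, and the other 6 genes overlap.

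Levels between genes were set against each other only per length, as CPM per kilobase of exons in the GENCODE M21 annotation. In control livers the order was S1pr1 (23.5 ± 3.52), Stab2 (16.2 ± 2.37), Eng (13.3 ± 1.97), Clec4g (12.7 ± 2.12), Cdh5 (10.9 ± 0.776), Kdr (8.08 ± 0.913), Lyve1 (6.19 ± 2.16), Stab1 (5.74 ± 0.88), Pecam1 (4.63 ± 0.254) and Mcam (1.53 ± 0.139 CPM per kilobase, SD, n = 5). Neighbours in this order overlapped in their control ranges, except Cdh5 above Kdr and Pecam1 above Mcam. In LKO livers S1pr1 stood at 14.9 ± 1.26 and Stab2 at 18.2 ± 3.93 CPM per kilobase. The defining markers of endothelium were thus measured in every library, the lowest single count being 122 for Mcam and 285 for Lyve1.

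Among the pan-endothelial genes, both junctional adhesion genes stood higher in LKO. Pecam1 (NCBI Gene 18613) encodes CD31, an adhesion molecule of endothelial contacts that platelets and leukocytes also carry. It measured 34.9, 35.9, 37.3, 44.4 and 33.5 CPM in LKO livers, against 30.1, 30.6, 27.5, 27.0 and 29.2 CPM in control livers. All LKO libraries lay above all controls, with LKO 4 the highest. The log2 fold change was 0.37 (SE 0.09; edgeR adjusted p = 0.0977). Cdh5 (NCBI Gene 12562), which encodes VE-cadherin of the endothelial adherens junction, measured 56.5, 58.3, 52.6, 69.2 and 53.2 CPM in LKO livers, against 50.8, 45.2, 43.6, 42.5 and 47.1 CPM in control livers. The groups did not overlap, and the gap between LKO 3 and control 1 was narrow. Its log2 fold change was 0.34 (SE 0.09; edgeR adjusted p = 0.106). Within A54 the log2 differences were 0.24 for Pecam1 and 0.18 for Cdh5, and control 4 had the lowest level of both genes among all libraries. Without control 4 the log2 fold change was 0.34 for Pecam1 (edgeR adjusted p = 0.0334) and 0.31 for Cdh5 (edgeR adjusted p = 0.0499).

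Platelet and megakaryocyte markers, which bear on Pecam1, summed to 10.99 to 14.4 CPM in LKO and 10.5 to 13.4 CPM in control livers. Over their 5 tested genes the median log2 fold change was 0.16, with 1 at an unadjusted and 0 at an adjusted p under 0.05 (edgeR). For this and each later list, the share of all genes with an unadjusted p under 0.05 was 22.3%. Pf4 stood at 1.28 with ranges apart, but at means of only 0.70 CPM in LKO and 0.28 CPM in control livers. Its single counts ran from 1 to 33. Itga2b, Itgb3 and Ppbp stood at 0.16, 0.13 and 0.18. Their part in the Pecam1 difference was not tested. In whole tissue, a larger share of endothelial cells and more RNA per cell cannot be told apart, here and in each result that follows.

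The receptor genes Eng and Kdr did not separate the genotypes. Eng (NCBI Gene 13805) encodes endoglin, a co-receptor for BMP9 and BMP10 on endothelium. It measured 75.8, 68.6, 54.8, 54.5 and 56.4 CPM in LKO livers, against 63.6, 60.2, 47.5, 52.1 and 45.2 CPM in control livers. The ranges overlapped, and the A54 libraries held the highest value of each group. The log2 fold change was 0.21 (SE 0.13; edgeR adjusted p = 0.346). It was 0.12 without LKO 1, 0.10 without the A54 libraries and 0.20 without control 4. Eng overlaps Fpgs in RefSeq, and no source used here says how reads of overlapping genes were assigned. Fpgs had means of 83.1 CPM in LKO and 94.5 CPM in control livers (log2 fold change -0.18). Kdr (NCBI Gene 16542) encodes VEGF receptor 2, the main signalling receptor for VEGF-A on endothelium. It measured 88.9, 83.8, 52.7, 101 and 72.9 CPM in LKO livers, against 85.0, 72.7, 75.5, 62.6 and 69.1 CPM in control livers. The controls lay inside the LKO range, and LKO 3 was the lowest library of all (log2 fold change 0.13, SE 0.16; edgeR adjusted p = 0.642). The log2 fold change of Kdr was 0.24 without LKO 3, 0.03 without LKO 4, 0.09 without LKO 1 and 0.08 without control 4.

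S1pr1 (NCBI Gene 13609) was the member that stood lower in LKO. It encodes the sphingosine-1-phosphate receptor that endothelium uses to keep its barrier tight and vessels stable, and lymphocytes use it to leave lymphoid organs. It measured 47.1, 41.2, 44.1, 51.1 and 43.2 CPM in LKO livers, against 71.0, 75.0, 84.8, 55.1 and 72.7 CPM in control livers. Every LKO library lay below every control library, and control 4 was the nearest to them. The level was 1.58-fold lower in LKO (log2 fold change -0.66, SE 0.11; edgeR adjusted p = 0.0521), the 23rd smallest p-value of all genes tested. Without control 4 the log2 fold change was -0.74 (edgeR adjusted p = 0.00415). Within A54, LKO 1 and LKO 2 had 47.1 and 41.2 CPM against 71.0 CPM in control 1, a log2 difference of -0.69.

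Markers of hepatocytes and lymphocytes, cell types in which S1pr1 RNA can also occur, were measured beside it. All 8 hepatocyte markers stood lower in LKO (median log2 fold change -0.48). Of them 3 had an unadjusted p under 0.05 and 0 an adjusted p under 0.05 (edgeR). They summed to 37374 to 55593 CPM in LKO and 42493 to 73977 CPM in control livers, where control 4 was the lowest control. Serpina1c stood at -1.06, Ttr at -0.48, Fgb at -0.56 and Hnf4a at -0.21. Of 8 tested lymphocyte markers, 6 stood higher and 2 lower (median log2 fold change 0.67), at sums of 6.91 to 14.1 CPM in LKO and 4.31 to 10.9 CPM in control livers. Among these, 2 higher and 1 lower had an unadjusted p under 0.05, and 0 had an adjusted p under 0.05 (edgeR). Cd8a stood at 1.17, Cd4 at -0.81 and Cd79a at 0.62. The part of either cell type in the S1pr1 difference was not tested.

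Mcam (NCBI Gene 84004) encodes MCAM or CD146, an adhesion molecule of endothelium, pericytes and smooth muscle. It was the least abundant member and stood higher in LKO. It measured 7.003, 8.11, 8.10, 7.79 and 8.35 CPM in LKO livers, against 4.61, 5.20, 4.96, 5.87 and 5.03 CPM in control livers. The groups did not overlap, LKO 1 was the lowest LKO library and control 4 the highest control. The level was 1.53-fold higher in LKO (log2 fold change 0.62, SE 0.10; edgeR adjusted p = 0.0514), the 17th smallest p-value. Without control 4 the log2 fold change was 0.67 (edgeR adjusted p = 0.00557), and without LKO 1 it was 0.65 (edgeR adjusted p = 0.0396). In the fit without LKO 1, 86 of 15403 genes passed, S1pr1 among them (log2 fold change -0.68, edgeR adjusted p = 0.0477). Neither Mcam nor S1pr1 passed with any of the other 8 libraries left out, where the edgeR adjusted p reached 0.166 for both. Within A54 the log2 difference of Mcam was 0.70.

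Mural cell and smooth muscle markers, which share Mcam with endothelium, stood higher for 9 of 9 tested genes (median log2 fold change 0.45), 3 of them at an unadjusted p under 0.05 and 0 at an adjusted p under 0.05 (edgeR). They summed to 123 to 192 CPM in LKO and 97.1 to 161 CPM in control livers, with control 4 the highest control. The pericyte receptor gene Pdgfrb had means of 26.1 CPM in LKO and 14.6 CPM in control livers (log2 fold change 0.84; edgeR adjusted p = 0.156). Des, Tagln and Acta2 stood at 0.59, 0.49 and 0.97. Their part in the Mcam difference was not tested.

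**Figure D2:**
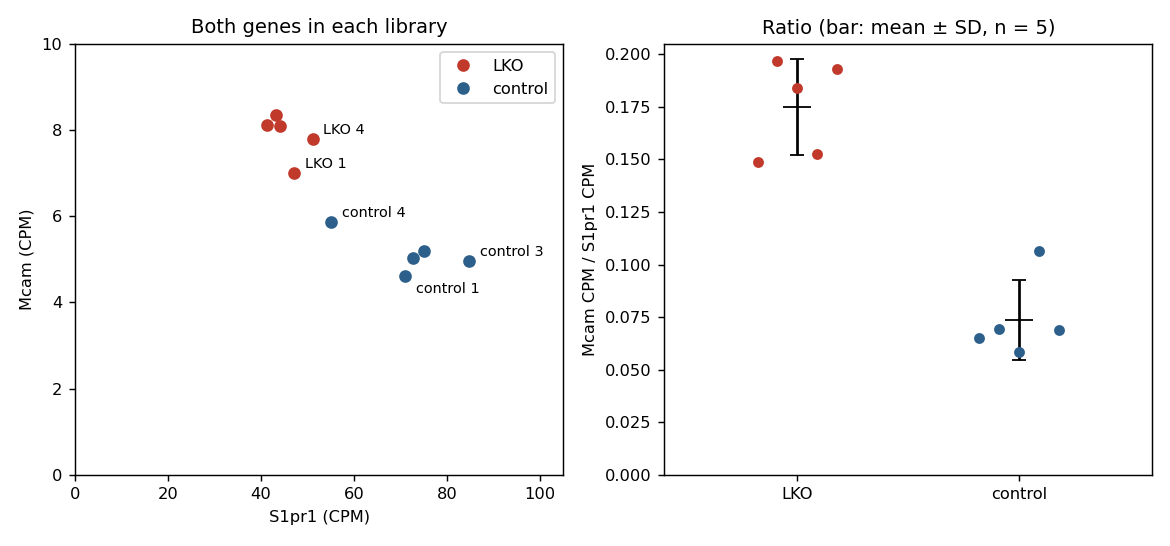
Left, Mcam (y axis, CPM) against S1pr1 (x axis, CPM) in each of the 5 LKO (red) and 5 control libraries (blue), both axes from 0. Right, the ratio of Mcam to S1pr1 CPM in each library with the mean ± SD. The ratio was 0.175 ± 0.0228 in LKO and 0.0737 ± 0.0189 in control livers, with control 4 at 0.1065 the highest control.

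The opposite order of Mcam and S1pr1 can be seen within each library in their ratio, which does not depend on library scaling. The ratio of CPM was 0.149, 0.197, 0.184, 0.152 and 0.193 in LKO livers, against 0.0648, 0.0694, 0.0585, 0.1065 and 0.0691 in control livers. All LKO libraries lay above all controls, and the mean ratio was 2.38-fold higher in LKO. The genes were listed together with their separate differences known, so the ratio is a description and carries no test.

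The sinusoidal genes overlapped between genotypes, all 4 with a higher mean in LKO. Stab1 (NCBI Gene 192187), which encodes the scavenger receptor stabilin-1 of sinusoidal endothelium and some macrophages, measured 79.3, 80.1, 68.9, 86.4 and 70.4 CPM in LKO livers, against 62.4, 60.6, 53.5, 71.4 and 47.6 CPM in control livers. Only control 4 reached into the LKO range. The log2 fold change was 0.38 (SE 0.11; edgeR adjusted p = 0.123), and without control 4 it was 0.46 (edgeR adjusted p = 0.0186). Without control 4 the ranges were apart for 5 members, Stab1 being the one added, and for 19.1% of all genes. Stab1 overlaps Nt5dc2 in RefSeq, which had means of 5.91 CPM in LKO and 4.02 CPM in control livers.

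Stab2 (NCBI Gene 192188) encodes stabilin-2, the hyaluronan-clearing receptor that is characteristic of sinusoidal endothelium. It measured 128, 179, 122, 204 and 162 CPM in LKO livers, against 162, 132, 124, 125 and 166 CPM in control livers. All controls lay inside the LKO range (log2 fold change 0.17, SE 0.16; edgeR adjusted p = 0.532), and within A54 the log2 difference was -0.09. The log2 fold change was 0.06 without LKO 4 and 0.13 without control 4. Lyve1 (NCBI Gene 114332), which encodes a hyaluronan receptor of sinusoidal and lymphatic endothelium and of some macrophages, measured 27.2, 32.9, 19.7, 26.4 and 28.6 CPM in LKO livers, against 15.7, 17.04, 9.62, 21.9 and 26.2 CPM in control livers. Control 4 and control 5 lay inside the LKO range, and control 3 was far below. Its log2 fold change of 0.57 had the largest standard error of the 10 members (SE 0.23; edgeR adjusted p = 0.185), and it was 0.65 without control 4 (edgeR adjusted p = 0.0964). Clec4g (NCBI Gene 75863), which encodes the sinusoidal C-type lectin LSECtin, measured 36.6, 39.1, 21.6, 56.9 and 28.7 CPM in LKO livers, against 35.1, 31.3, 37.8, 26.5 and 25.9 CPM in control livers. The controls lay inside the LKO range, from LKO 3 at the low end to LKO 4 at the high end (log2 fold change 0.23, SE 0.22; edgeR adjusted p = 0.565). Without LKO 4 the log2 fold change of Clec4g was 0.0049, without LKO 3 it was 0.36, and without control 4 it was 0.17.

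Macrophage and Kupffer cell markers, which share Stab1 and Lyve1 with endothelium, stood higher for 10 of 12 tested genes, at a median log2 fold change of 0.64. Of them 6 had an unadjusted p under 0.05 and 0 an adjusted p under 0.05 (edgeR). They summed to 545 to 763 CPM in LKO and 330 to 601 CPM in control livers, and control 4 was the highest control here as it was for Stab1. The macrophage genes with the smallest p were Lyz2 (log2 fold change 1.32), C1qa (0.66), Adgre1 (0.62) and Cd68 (0.76), all with overlapping ranges. The 2 genes of this list that stood lower were Clec4f (-0.03) and Timd4 (-0.23). Lymphatic markers bear on Lyve1, and of 5 tested 4 stood higher and 1 lower. Of them 1 higher (Ccl21a) and 1 lower (Prox1) had an unadjusted p under 0.05, 0 passed, and the ranges of all 5 overlapped. Prox1, which hepatocytes express too, averaged 88.1 CPM in LKO and 130 CPM in control livers (log2 fold change -0.56; edgeR adjusted p = 0.0999). Flt4, which sinusoids express too, stood at 0.12. Ccl21a, Mmrn1 and Pdpn had LKO means of 1.34, 1.55 and 1.03 CPM and control means of 0.73, 0.656 and 0.545 CPM (edgeR adjusted p from 0.184 to 0.307). The part of either cell type in the Stab1 and Lyve1 differences was not tested.

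Kdr and Clec4g both had their lowest LKO level in LKO 3 and their highest in LKO 4, as Stab2 did. Over the 10 libraries the Pearson r of log2 CPM was 0.926 for Kdr with Clec4g. The promoters of Kdr and Clec4g are shown as a pair that varied alike, and that of Mcam as the member with the largest positive log2 fold change. Each spans 300 bases around the gene start in RefSeq (build GRCm38.p6, read 5′ to 3′ on the strand of the gene). Capitals mark GGAAG or its reverse complement, a motif that includes the core bound by ETS factors, a family with endothelial members such as ERG. Other forms of that core were not marked or counted.
Mcam (chr9:44134408-44134707, + strand): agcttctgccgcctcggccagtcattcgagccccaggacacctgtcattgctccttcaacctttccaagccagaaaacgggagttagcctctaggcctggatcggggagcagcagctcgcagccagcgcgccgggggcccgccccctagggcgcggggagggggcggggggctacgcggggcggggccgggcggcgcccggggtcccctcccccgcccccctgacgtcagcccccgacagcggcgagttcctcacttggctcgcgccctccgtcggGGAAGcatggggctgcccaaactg
Kdr (chr5:75978406-75978705, - strand): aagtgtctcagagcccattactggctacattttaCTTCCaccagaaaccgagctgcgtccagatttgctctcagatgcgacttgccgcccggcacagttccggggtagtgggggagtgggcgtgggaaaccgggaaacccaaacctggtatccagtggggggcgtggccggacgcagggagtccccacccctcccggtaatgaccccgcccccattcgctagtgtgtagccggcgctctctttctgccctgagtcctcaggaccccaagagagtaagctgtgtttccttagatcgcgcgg
Clec4g (chr8:3720602-3720901, - strand): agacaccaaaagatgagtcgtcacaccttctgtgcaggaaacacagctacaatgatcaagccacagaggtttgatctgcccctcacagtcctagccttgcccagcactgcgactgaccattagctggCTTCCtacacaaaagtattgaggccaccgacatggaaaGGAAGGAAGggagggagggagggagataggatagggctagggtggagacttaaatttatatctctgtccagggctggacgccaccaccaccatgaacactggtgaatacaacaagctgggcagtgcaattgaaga
The table held promoters of 6 members (Eng, Kdr, Stab1, Stab2, Clec4g and Mcam). GGAAG was searched on both strands, overlapping matches counted, and was found in 6 of these 6 and in 71.1% of 27025 promoters of the same length. It occurred once in Mcam, Kdr and Stab2, 2 times in Eng and 3 times in Stab1 and Clec4g. CACCC, a core of KLF sites, was found in 5 of 6 (not in Mcam) and in 56.7% of all promoters. GATAA, a core of GATA sites, was found in 0 of 6 and in 25.8% of all promoters. These matches are letters in a window and show no binding.

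The spread within groups differed between members. The coefficient of variation ran from 6.65% (Mcam) to 36.4% (Clec4g) in LKO and from 5.49% (Pecam1) to 34.9% (Lyve1) in control livers. By likeness to a member over the 10 libraries (Pearson r of log2 CPM, among 13277 other genes with a mean of at least 1 CPM), the 5 nearest genes to Cdh5 were Pecam1 (r = 0.944, Spearman rho = 0.891), Lonp1, Afap1l1, Igfbp2 and Fam174b (r down to 0.913). The 5 nearest to Stab2 were Esam, an endothelial junction gene (r = 0.895, Spearman rho = 0.733), Osgep, Trir, Ddx54 and Sac3d1 (r down to 0.867). The 5 nearest to Mcam were the histone genes H2bc12 and H2ac22, with Htatip2, Idh2 and Srxn1 (r from 0.950 to 0.965). The 5 nearest to S1pr1 were Tmem69, Slc4a1ap, H2bc4, NCBI Gene 330544 and Ddx19b (r from 0.960 to 0.971). With each genotype's mean removed, r was 0.823 for Pecam1 with Cdh5, 0.893 for Esam with Stab2, 0.648 to 0.940 for the 5 genes with Mcam and 0.809 to 0.940 for the 5 with S1pr1. Library depth and genotype are shared by these values, so r is given as a description.

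A second fit asked which members differ beyond the shared level of endothelial transcripts. In it the libraries were scaled so that 24 other pan-endothelial genes, none of them a member, had the same mean log2 level in each library. Their mean stood 0.30 higher on the log2 scale in LKO (0.30 ± 0.11) than in control livers (0.00 ± 0.09 around the control mean, SD, n = 5 each) before this scaling. The median over all genes was then -0.31 on the log2 scale, against -0.0036 with TMM, and 34.9% of all genes then had an adjusted p under 0.05, 5130 of them lower and 182 higher. In this fit S1pr1 fell by 0.98 on the log2 scale in LKO relative to the endothelial genes (SE 0.13; edgeR adjusted p = 0.00906). It had the 11th smallest p-value of the 15226 genes, and it lay below the shifted median of all genes. All 8 hepatocyte markers also stood lower in this fit (median log2 fold change -0.81), 5 of them at an adjusted p under 0.05 (edgeR). The part of hepatocytes in the S1pr1 value was not tested. Mcam stood at 0.32 (SE 0.12; edgeR adjusted p = 0.0646).

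The other 8 members lay between -0.19 (Kdr) and 0.26 (Lyve1) relative to the endothelial genes, with 0 past an adjusted p of 0.05. Pecam1 stood at 0.05 and Cdh5 at 0.02, and Stab1 at 0.08. Stab2, Eng and Clec4g stood at -0.15, -0.09 and -0.11. These values depended on how the reference was formed. With the counts of the reference genes summed instead, Pecam1 stood at 0.18 (SE 0.09), Cdh5 at 0.15 and Stab1 at 0.19. Lyve1 then stood at 0.37, and Kdr, Stab2, Eng and Clec4g at -0.08, -0.03, 0.02 and 0.01. A p that misses the threshold does not show that these levels were equal.

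**Figure D3:**
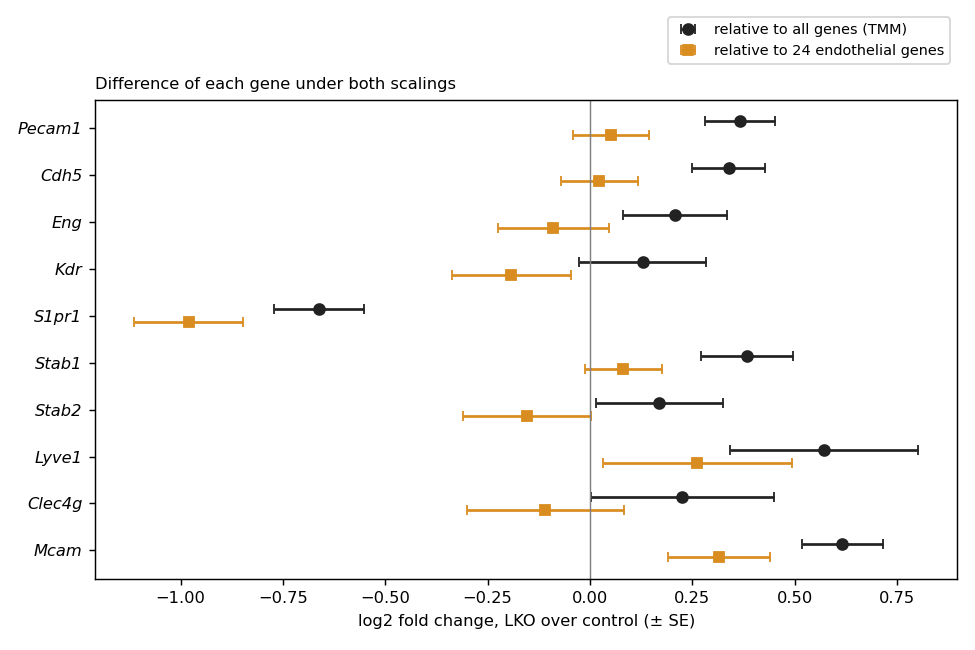
Log2 fold change of LKO over control (x axis, ± SE) of each member, relative to all genes with TMM scaling (black circles) and relative to 24 other pan-endothelial genes (orange squares), n = 5 livers per group. The squares of 8 members lie between -0.19 and 0.26, S1pr1 stands at -0.98 and Mcam at 0.32.

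The wider endothelial lists showed where the members stood among genes of the same kind. Of 24 other pan-endothelial genes, 22 had a higher and 2 a lower mean in LKO (median log2 fold change 0.24). Of them 9 had an unadjusted p under 0.05 and 0 passed at an adjusted p under 0.05 (edgeR). The endothelial nitric oxide synthase gene Nos3 had the smallest p, with 4.57 CPM in LKO and 3.02 CPM in control livers (log2 fold change 0.59, SE 0.12; edgeR adjusted p = 0.0795). The tight junction gene Cldn5 (0.58) and the adrenomedullin receptor component Ramp2 (0.46) also had ranges apart, and the adhesion gene Icam2 (0.65) overlapped. Of 24 tested other sinusoidal genes, 21 had a higher and 3 a lower mean (median 0.21). Among these, 7 had an unadjusted p under 0.05, against 22.3% of all genes, and 0 passed. The endocytic receptor gene Mrc1 had a log2 fold change of 0.25, coagulation factor F8 stood at 0.05, and the sinusoidal Wnt ligand genes Wnt2 and Wnt9b stood at -0.08 and 0.73. Efnb2 (0.39), Lgmn (0.50) and Dll4 (0.48) were with Wnt9b the sinusoidal genes with the smallest p. The medians of the member groups were 0.21 (pan-endothelial), 0.30 (sinusoidal) and 0.62 (Mcam alone), beside -0.0036 over all genes.

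Genes of capillarized and continuous vessels had the highest median of the 3 wider lists, at 0.80, with 19 of 19 tested higher in LKO. Of these 10 had an unadjusted p under 0.05 and 0 passed. Lama4, a laminin chain of vessel basement membrane, measured 21.6 CPM in LKO and 14.1 CPM in control livers with ranges apart (log2 fold change 0.61, SE 0.09; edgeR adjusted p = 0.0514). The basement membrane collagen genes Col4a1 and Col4a2 stood at 1.04 and 0.75, and the adhesion gene Vcam1 at 0.92, all with overlapping ranges. Over the list the log2 fold change ran from 0.08 (Selp) to 1.5 (Fabp4), with Plvap at 0.14 and Vwf at 0.29. Relative to the 24 endothelial genes, 16 genes of the list stood higher and 3 lower (median log2 fold change 0.55). The lower 3 were Plvap (-0.15), Vwf (-0.03) and Selp (-0.24). In that scaling 2 of the 19 genes had an adjusted p under 0.05 (edgeR), beside 34.9% of all genes. Stellate cells and leukocytes also express several genes of this list, among them Col4a1, Col4a2, Vcam1, Icam1, Cd9 and Fabp4. Stellate cell markers summed to 540 to 953 CPM in LKO and 442 to 766 CPM in control livers. Of 10 tested, 9 stood higher and 1 (Ecm1, -0.35) lower, at a median log2 fold change of 0.39. Among them 5 had an unadjusted p under 0.05 (edgeR), 0 passed, and 0 had ranges apart. Those with the smallest p were Dcn (0.70), Pdgfra (1.33), Lrat (0.51) and Lum (1.65), while Reln stood at 0.09. In control 4 the capillarization list summed to 575 CPM and the stellate list to 766 CPM, the highest of the controls in both, and the part of stellate cells and leukocytes was not tested. Without control 4 the capillarization median was 1.13, with 8 of 20 tested genes past an adjusted p of 0.05, against 7 of 24 pan-endothelial and 3 of 24 sinusoidal genes. In that fit 15.0% of all genes passed, and the sinusoidal share was not above it.

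**Figure D4:**
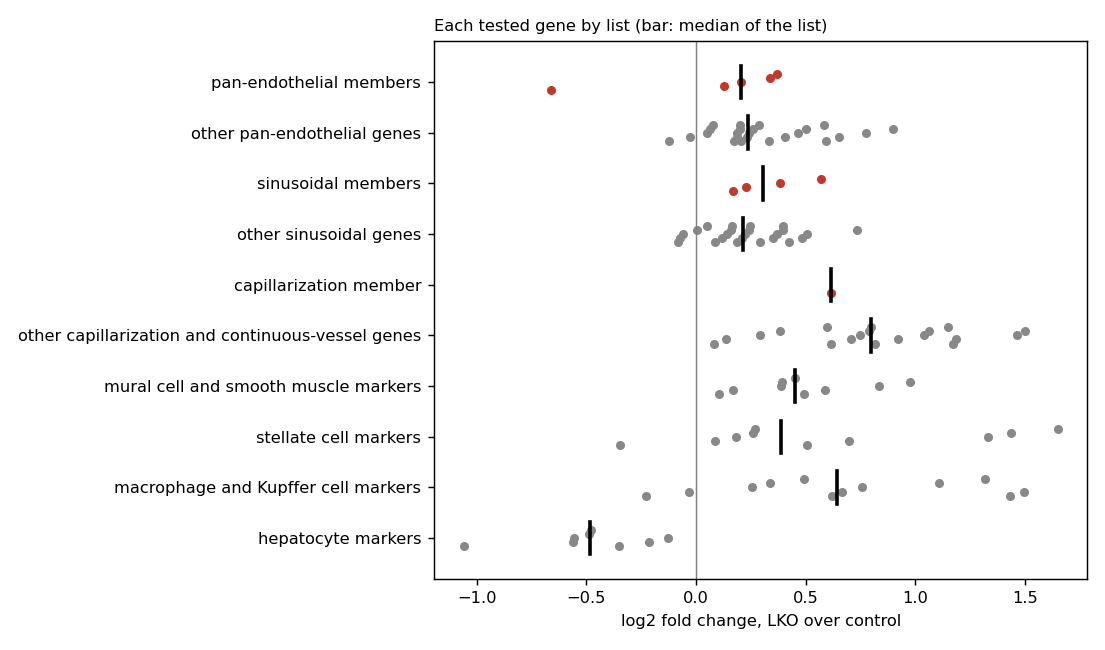
Log2 fold change of LKO over control (x axis) of every tested gene in 10 lists, with members in red, other genes in grey and the median of each list as a black bar. The wider capillarization list has its median at 0.80, the wider pan-endothelial and sinusoidal lists at 0.24 and 0.21, and all 8 hepatocyte markers lie below 0.

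Ligands and partners of the receptor members were examined by axis. Counts at an unadjusted p under 0.05 stand beside 22.3% of all genes. For S1pr1, 14 genes of sphingosine-1-phosphate signalling were tested, 7 higher and 7 lower in LKO (median log2 fold change -0.0038). Of them 6 had an unadjusted p under 0.05, 4 higher and 2 lower, and 0 passed. The receptor genes differed in sign: S1pr2 measured 8.81 CPM in LKO and 5.64 CPM in control livers (log2 fold change 0.64, SE 0.15; edgeR adjusted p = 0.0977), and S1pr5 measured 2.95 CPM in LKO and 5.12 CPM in control livers (-0.79, SE 0.24; edgeR adjusted p = 0.131). Genes of phosphatases that dephosphorylate the ligand also differed in sign, with Sgpp1 at -0.31, Plpp1 at 0.30, Plpp2 at 0.55 and Plpp3 at -0.23. The carrier gene Apom stood at -0.06. The flow-response factor Klf2, an activator of S1pr1 in lymphocytes and endothelium, stood at 0.31.

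For Kdr, 12 genes of the VEGF and angiopoietin axis were tested, 10 higher and 2 lower. Of them 6 had an unadjusted p under 0.05, 5 higher and 1 lower, and 0 passed. The ligand gene Vegfa measured 114 CPM in LKO and 138 CPM in control livers (log2 fold change -0.27; edgeR adjusted p = 0.29), while Vegfc, a ligand of the lymphatic receptor, stood at 0.50 with ranges apart and Angpt1, the ligand of the TIE2 receptor, at 1.25 with overlapping ranges. The co-receptor genes differed in sign, with Nrp1 at -0.45 (SE 0.15; edgeR adjusted p = 0.139) and Nrp2 at 0.68 (SE 0.15; edgeR adjusted p = 0.0921). For Eng, 18 genes of the BMP9 and BMP10 axis were tested, 13 higher and 5 lower (median 0.12). Of them 5 had an unadjusted p under 0.05, 3 higher and 2 lower, and 0 passed. Gdf2, the BMP9 gene, stood at 0.05 and Bmp10 at -0.97 (1.55 CPM in LKO and 3.05 CPM in control livers; edgeR adjusted p = 0.173). Their receptor gene Acvrl1 stood at 0.36. The type II receptor gene Acvr2a stood at -0.28 with ranges apart (edgeR adjusted p = 0.0999), Tgfbr2 at 0.28 and the ligand gene Tgfb1 at 0.45. Of 10 tested vessel Notch genes, 10 stood higher, 3 at an unadjusted p under 0.05, and 0 passed. Among them were Notch4 (0.46) and Dll4 (0.48) with ranges apart, and Jag1 (0.35) and Hey1 (0.65) with overlapping ranges.

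**Figure D5:**
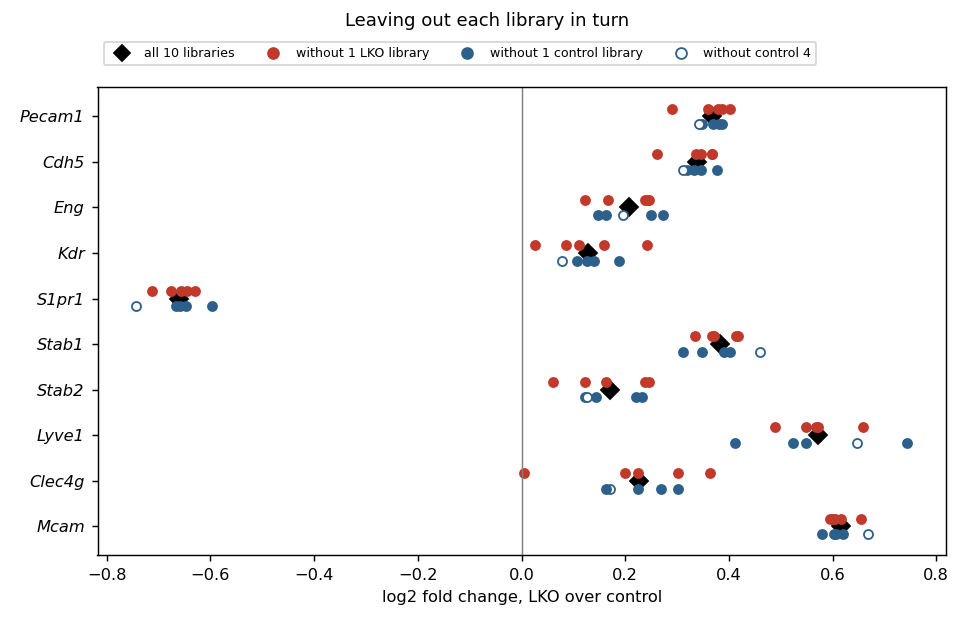
Log2 fold change of LKO over control (x axis) of each member with all 10 libraries (diamonds) and with 1 LKO (red) or 1 control library (blue; control 4 open) left out. S1pr1 stays between -0.74 and -0.60 and Mcam between 0.58 and 0.67, while Clec4g ranges from 0.0049 to 0.36.

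Leaving out each library in turn kept the direction of all 10 members. The log2 fold change ran from -0.74 to -0.60 for S1pr1, from 0.58 to 0.67 for Mcam, from 0.29 to 0.40 for Pecam1 and from 0.26 to 0.38 for Cdh5. It ran from 0.03 to 0.24 for Kdr, from 0.06 to 0.25 for Stab2 and from 0.41 to 0.74 for Lyve1. It ran from 0.12 to 0.27 for Eng, from 0.31 to 0.46 for Stab1 and from 0.0049 to 0.36 for Clec4g. With the title code as a covariate, S1pr1 stood at -0.69 (SE 0.23) and Mcam at 0.71 (SE 0.20), both with an edgeR adjusted p of 0.878. In the same fit Pecam1 stood at 0.24 (SE 0.17), Cdh5 at 0.18 (SE 0.18), Eng at 0.18, Kdr at 0.02, Stab1 at 0.35, Stab2 at -0.07, Lyve1 at 0.94 (SE 0.49) and Clec4g at 0.11. There 0 members passed, and 0 of all genes.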

How the data were processed

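Whole-liver RNA was sequenced from 5 LKO and 5 control mice. Per the labels' protocols, ribosomal RNA was depleted, libraries were stranded, and 1 lane was read from 1 end. The deposited table gives raw counts per NCBI Gene number and library. Per the submitters' processing notes, bcl2fastq 2.20 and DESeq2 were used, and the build was GRCm39. No source used here names the aligner, the counter, its strand setting or the annotation, so reads of overlapping genes may be assigned either way. All 10 columns were matched by title, and 0 columns were unused. Symbols came from RefSeq GRCm38.p6 (25275 of 27179 genes matched).

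Genes were filtered with filterByExpr, scaled with TMM and tested by genotype in R 4.3.3 with edgeR 4.0.16 (quasi-likelihood F test, legacy option, two-sided, Benjamini-Hochberg adjustment over 15226 genes). The common biological coefficient of variation was 0.242. A second fit scaled libraries to 24 endothelial genes. SE was derived from the fold change and F. A floor of 3 counts equals 0.0698 to 0.113 CPM and covers counting error only. DESeq2 1.42.0 and limma 3.58.1 voom with quality weights were alternatives. The fits were tested on data simulated from the dispersions edgeR estimated, with no library set apart from its group. There edgeR, DESeq2, voom and edgeR with endothelial scaling recovered 65, 77, 65 and 64 of 97 genes changed 2-fold. In the same order they passed 6, 39, 6 and 5 unchanged genes. No replicate pair agreed within sampling noise (lowest chi-square over genes per degree of freedom 32.1). The members, lists, tests and alternatives were chosen with earlier results of these data known. Named genes were the members, Lpcat3, the 4 of each list with the smallest p and the 5 nearest to Cdh5, Stab2, Mcam and S1pr1. Other list genes given with values were Mrc1, F8, Wnt2, Selp, Fabp4, Plvap, Vwf, Clec4f, Timd4, Flt4, Vegfa, Gdf2, Acvrl1, Plpp2, Plpp3, Apom, Klf2, Ecm1 and Reln. These and the overlapping genes Fpgs and Nt5dc2 were chosen after their values were seen. A gene that the rule names is not reported here. Figures were drawn with matplotlib 3.10.9.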

Additional observations from a re-analysis of the deposited data

Results flagged for a closer look

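The ratio of Mcam to S1pr1 CPM in control 4 was 0.1065, while the other 4 controls lay between 0.0585 and 0.0694. Its gap to the nearest control was 0.774 of the range of the group, above the critical value for 5 samples. This was 1 of 26 groups of 5 values examined, where chance gives about 1 in 20. Control 4 was also the library that lay among the LKO livers on the first principal component.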

How the results depend on the processing

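Over 22 alternatives and 10 members, 1 of 220 log2 fold changes changed sign. This was Stab2 with the title code as a covariate (-0.071), where genotypes are compared within A54 alone. In 26 a member passed that did not pass with all libraries, TMM and edgeR. The count of members past the threshold was 1 without a filter (S1pr1), 2 with at least 1 CPM in 5 libraries (S1pr1 and Mcam), 5 with DESeq2, 6 with limma voom, 3 at an adjusted p under 0.1 and 5 without control 4 and LKO 3, an alternative chosen after seeing the data. With 1 library left out it ran from 0 to 5 (without control 4), with 2 without LKO 1. Over all genes, the count of 10 was 31, 20, 1186, 2460, 296 and 2363 under the same 6 settings, and 0 with the title code. With 1 library left out it ran from 2 to 2296 (without control 4), with 86 without LKO 1. The replicate block gave 2 genes and 0 members (S1pr1 -0.65, edgeR adjusted p = 0.161). The numbers of the titles share no stated litter or day, and deviations of same-numbered livers had r from -0.40 to 0.42. Scaling to total counts moved the median of all genes to 0.24. There S1pr1 stood at -0.41 and Mcam at 0.85.

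Relative to the endothelial genes, S1pr1 passed under 14 of 14 alternatives (log2 fold change -1.09 to -0.85) and no other member did. The count of 5312 genes was 2010 with summed reference counts, and with 1 library left out it ran from 2220 to 7516. Values near 0 changed sign. With summed counts Eng stood at 0.0227 and Clec4g at 0.0098, and with 1 library left out Clec4g ran from -0.258 to 0.0204 (without LKO 3). Cdh5 stood at -0.0131 with Pecam1 and Cdh5 as reference, and with 1 library left out it ran from -0.0295 (without control 4) to 0.0643. Without control 4 and LKO 3, Pecam1 stood at -0.0171 and Cdh5 at -0.0116. The cause of these moves was not tested. The lowest count of a member in any library was 122 (Mcam).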
